A study of Mus musculus with 2 samples.

Results

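Cd248 encodes CD248 (endosialin), a lectin on the surface of mural cells and of fibroblasts in stroma, and it was read here together with its nearest relatives and the proteins these receptors are reported to bind. The 10 genes were chosen by symbol. They are the group 14 C-type lectins (Cd248, Thbd, Clec14a and Cd93), the matrix ligands Mmrn2 and Fn1, and the galectin-binding glycoprotein gene Lgals3bp with the galectins Lgals1, Lgals3 and Lgals9. All 10 had a row in the table of 52636 Ensembl gene IDs. RNA-seq had been run on primary pericytes sorted from mouse tumours by fluorescence-activated cell sorting, kept on gelatin-coated plates and taken at passages 10 to 12. There was 1 library from Cd248 null (knockout) cells and 1 library from Cd248 heterozygous cells, both on the C57BL/6 strain. The sources used here do not give the tumour model, the sorting markers, the number of mice behind each culture or the lesion in the null allele.

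The group 14 lectins are type I membrane proteins that carry a C-type lectin domain, EGF-like repeats and a mucin-like stem. Thrombomodulin (Thbd) is the endothelial receptor that turns thrombin towards activating protein C, while CLEC14A and CD93 are known as endothelial adhesion and angiogenesis receptors, and CD248 is their counterpart on mural cells and fibroblasts. Multimerin 2 (Mmrn2), a glycoprotein of the endothelial extracellular matrix, is known to bind CLEC14A, CD93 and CD248, and fibronectin (Fn1) and collagens I and IV are reported ligands of CD248. Lgals3bp encodes a heavily glycosylated secreted protein, also called Mac-2 binding protein, that binds galectins and has been reported as a ligand of CD248. Galectins are lectins that recognise beta-galactosides on cell surface and matrix glycoproteins.

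The authors' FPKM values (fragment counts scaled to transcript length and sequencing depth) summed to 700322 in null cells and 744336 in heterozygous cells. The step between low values showed that an FPKM of 1 on 1 kb of transcript stood for 19.8 reads in null cells and 24.0 reads in heterozygous cells. Each genotype had 1 library, so the spread between cultures or animals is unknown, no test was run, and each interval given here covers counting error only. Which column is which genotype was read from the last letter of the column codes (N as null, P as heterozygote). The libraries also differed in sex-linked RNA. The X-inactivation RNA Xist had an FPKM of 74.2 in null cells and 0.0133 in heterozygous cells, while the Y-linked genes Ddx3y, Eif2s3y, Kdm5d and Uty were listed at 0 in null cells and stood at 5.91, 14.3, 1.56 and 1.503 in heterozygous cells. Genotype, the sex-linked difference and the culture of origin cannot be told apart.

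Cd248 (ENSMUSG00000056481, mouse chromosome 19, plus strand, 1 annotated exon) had an FPKM of 0.0592 in null cells and 21.0 in heterozygous cells. It was therefore close to absent from the library read as null and at a middle level in the other, where 59.0% of the 12773 genes compared lay below it. These values stand for 3 and 1288 reads, taking the transcript length (2.56 kb, against 2.605 kb annotated) at which the null value is a whole number. The exact 95% Poisson intervals were 0.0122 to 0.173 and 19.8 to 22.2. The null value was 0.282% of the heterozygote value, so the latter was 354-fold higher, with a counting interval of 121-fold to 1720-fold.

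Genes entered the comparison when either library reached an FPKM of 1. They were set against each other as a log2 ratio, null over heterozygote, with 1 added to both FPKM values, so the ratio is too small for genes of low level. On that scale Cd248 stood at -4.38, and 37 of the 12773 genes had a lower ratio. The 5 genes closest to Cd248 by the distance of log2(FPKM + 1) over the 2 libraries were Nppb, Perp, Frmd4b, Dpysl5 and Mapk13, at distances of 0.06 to 0.15. Nppb, the gene of B-type natriuretic peptide, had FPKM values of 0.0647 in null cells and 21.9 in heterozygous cells. Perp, a membrane protein gene of the p53 response and of desmosomes, had 0.0259 and 19.8. A likeness over 2 libraries says only that these genes had similar values in both.

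The protein-coding genes next to Cd248 on chromosome 19, chosen by position in the RefSeq GRCm38.p6 gene order, did not share its near absence from null cells. Rin1, which encodes a Ras and Rab5 effector and lies next to Cd248 on one side, had an FPKM of 91.4 in null cells and 87.4 in heterozygous cells. Tmem151a, the neighbour on the other side, had 38.2 and 133, a log2 ratio of -1.77. Tmem151a was the lowest of the 6 neighbours by ratio, and the other 5 lay within 2-fold on the log2(FPKM + 1) scale. Among these, Brms1, a subunit gene of a histone deacetylase complex, stood at 33.7 and 56.8, and Yif1a, a gene of transport between the endoplasmic reticulum and Golgi, at 37.2 and 45.0. Whether the null allele touches Tmem151a was not tested.

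**Figure D1:**
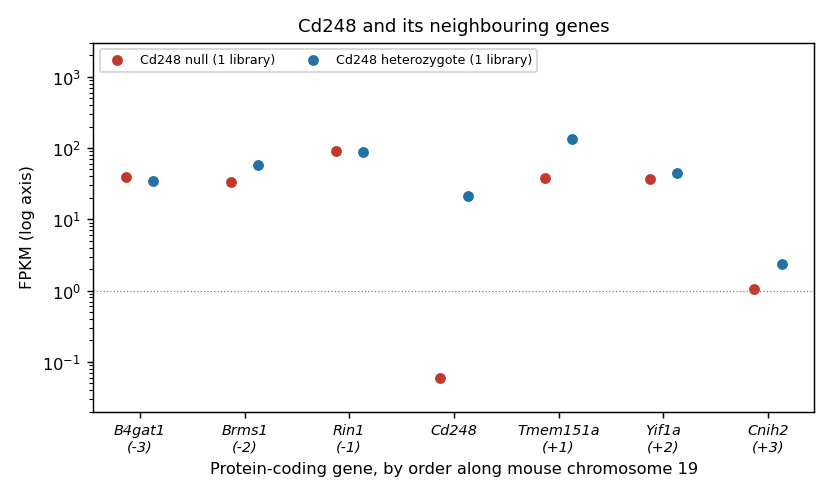
FPKM (log axis) of Cd248 and the 3 protein-coding genes on each side of it, in their order along mouse chromosome 19, with 1 point per library and no error bars. Cd248 stands at 0.0592 in null cells and 21.0 in heterozygous cells, Tmem151a at 38.2 and 133, and Rin1 at 91.4 and 87.4. The dotted line marks an FPKM of 1.

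Thbd (ENSMUSG00000074743, chromosome 2, 1 annotated exon) was the one other lectin of the family above an FPKM of 1. Its FPKM was 47.1 in null cells, with a counting interval of 45.5 to 48.6, and 33.2 in heterozygous cells, with an interval of 32.0 to 34.4. It was 1.42-fold higher in null cells, with a counting interval of 1.35-fold to 1.49-fold, which is within the 2-fold mark. The log2 ratio was 0.49, and 19.3% of the genes compared had a higher one. Thbd made up 99.5% of the summed FPKM of the 4 lectins in null cells and 61.2% in heterozygous cells, where Cd248 supplied 38.7%.

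Clec14a and Cd93, the endothelial members, were below an FPKM of 1 in both libraries. Clec14a (ENSMUSG00000045930, chromosome 12, 1 annotated exon) was listed at 0 in both. Its limit was set at 3 reads, a one-sided floor that stands for an FPKM of 0.0332 in null cells and 0.0274 in heterozygous cells, and the upper ends of the exact 95% Poisson intervals were 0.0408 and 0.0337. Cd93 (ENSMUSG00000027435, 2 annotated exons) is the gene next to Thbd on chromosome 2. It had an FPKM of 0.167 in null cells, or 22 reads, and 0.0312 in heterozygous cells, or 5 reads. The ratio of these low values was 5.33, with a counting interval of 1.97 to 18.0, while the log2 ratio with the added 1 was 0.18. Cd93 was thus higher in null cells by read number, but under the level at which genes were compared.

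Mmrn2 (ENSMUSG00000041445, chromosome 14), the shared matrix ligand of the endothelial lectins and CD248, was low as well. Its FPKM was 0.0899 in null cells and 0.0848 in heterozygous cells, corresponding to 7 and 8 reads on the longest annotated transcript. On the shortest coding transcript they would stand for 0.923 and 1.06 reads. The reads behind the null value were 0.875 of those behind the heterozygote value whatever the length, which is the ratio of 7 to 8. The FPKM ratio was 1.06, with a counting interval of 0.327 to 3.35 on the longest transcript. A difference within that range could not have been seen at this depth. The shortest transcript gave 0.0154 to 95.1, but its values were rounded to whole reads and so lost the ratio of 7 to 8. That wider interval is therefore no measure of the counting error.

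Fn1 (ENSMUSG00000026193, chromosome 1), the gene of fibronectin, was the member furthest above the heterozygote level. Its FPKM was 1115 in null cells and 192 in heterozygous cells. The null library was high, at 5.82-fold the heterozygote value, with a counting interval of 5.76-fold to 5.89-fold. The log2 ratio of 2.54 was exceeded by 93 of the 12773 genes compared. Fn1 was the gene of rank 76 by FPKM in null cells and of rank 643 in heterozygous cells, and it held 0.159% and 0.0257% of the summed FPKM. The annotation lists 17 Fn1 transcripts, and the deposited values do not separate splice forms.

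Lgals3bp (ENSMUSG00000033880, chromosome 11) had an FPKM of 88.0 in null cells and 152 in heterozygous cells. Null cells had the lower value, by 1.73-fold, with a counting interval of 1.66-fold to 1.79-fold. Fn1 and Lgals3bp, the expressed matrix and soluble ligands, thus lay on opposite sides. The FPKM of Fn1 was 12.7 times that of Lgals3bp in null cells and 1.26 times in heterozygous cells.

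Lgals1 (ENSMUSG00000068220, chromosome 15), which encodes galectin-1, was the most abundant member in both libraries. Its FPKM was 3872 in null cells and 3839 in heterozygous cells, and its ranks among the genes compared were 8 and 9. The ratio was 1.01, with a counting interval of 0.998 to 1.02. The interval covers counting error only and says nothing of the spread between cultures.

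Lgals3 (ENSMUSG00000050335, chromosome 14), which encodes the chimeric galectin-3 that binds Lgals3bp, had an FPKM of 123 in null cells and 230.5 in heterozygous cells. The heterozygote library was the high one, by 1.88-fold, with a counting interval of 1.80-fold to 1.96-fold. Lgals9 (ENSMUSG00000001123, chromosome 11) encodes the tandem-repeat galectin-9, a ligand of the immune receptor TIM-3. It had 80.1 in null cells and 154 in heterozygous cells, where it was 1.93-fold higher, with a counting interval of 1.84-fold to 2.02-fold. Lgals3bp, Lgals3 and Lgals9 were therefore all lower in null cells, and their log2 ratios of -0.78, -0.90 and -0.94 all stopped short of the 2-fold mark. At a mark of 1.5-fold these 3 would join Cd248 as lower, against 12.9% of all genes compared. The share of compared genes with a lower ratio was 8.80% for Lgals3bp, 7.60% for Lgals3 and 7.37% for Lgals9. The FPKM ratio of Lgals3 to Lgals9 was nearly the same in both libraries, at 1.53 in null cells and 1.49 in the heterozygote. That of Lgals1 to Lgals3 was 31.5 in null cells and 16.7 in the heterozygote.

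**Figure D2:**
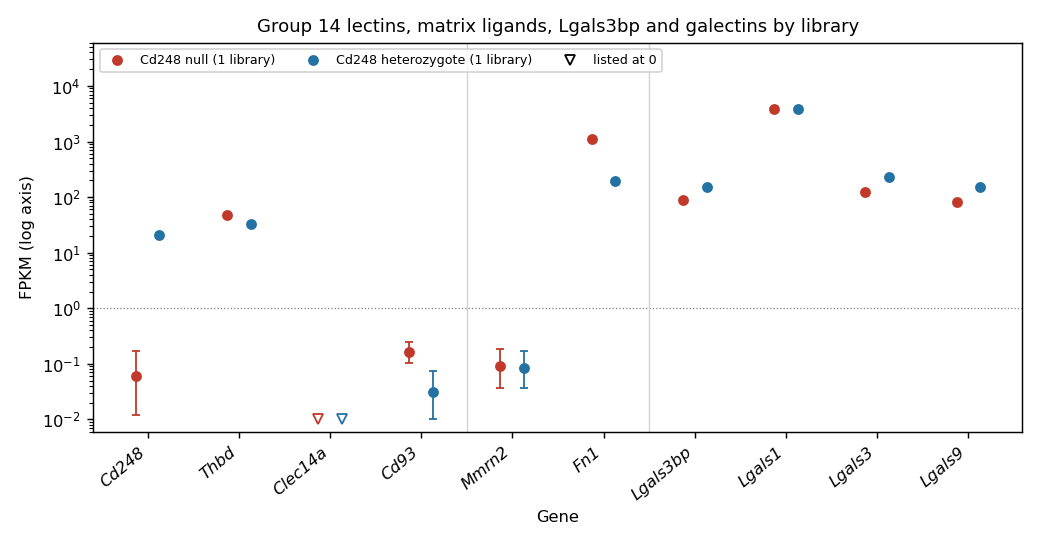
FPKM (log axis) of the 10 genes, with 1 point per library and vertical lines for exact 95% Poisson intervals, which cover counting error only and are mostly smaller than the points. Grey lines part the lectins, the matrix ligands, and Lgals3bp with the galectins; triangles are genes listed at 0 and the dotted line is an FPKM of 1. Cd248 and Fn1 show the widest gaps between libraries among the members that reached an FPKM of 1, and Lgals1 stands near 3872 in null cells and 3839 in heterozygous cells.

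The promoters of the 3 members that were lower together in null cells are shown to set their start regions side by side. The sequences are from RefSeq (GRCm38.p6), whose table matched 4 of the 10 members (Clec14a, Lgals3, Lgals3bp and Lgals9), and run 5′ to 3′ on the gene's strand from 250 bases before to 50 bases after the start. Capitals mark GAAANNGAAA in Lgals9, GAAANNNGAAA in Lgals3bp and GGGCGG in Lgals3, each searched on both strands. These motifs were chosen after the values were known.
Lgals9 (chr11:78984875-78985174, minus strand): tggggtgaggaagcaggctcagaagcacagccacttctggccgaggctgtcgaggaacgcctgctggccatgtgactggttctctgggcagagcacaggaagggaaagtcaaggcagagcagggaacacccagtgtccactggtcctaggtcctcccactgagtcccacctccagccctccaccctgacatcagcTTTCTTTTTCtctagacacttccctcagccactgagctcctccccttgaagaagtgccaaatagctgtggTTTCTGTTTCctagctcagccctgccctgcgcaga
Lgals3bp (chr11:118401910-118402209, minus strand): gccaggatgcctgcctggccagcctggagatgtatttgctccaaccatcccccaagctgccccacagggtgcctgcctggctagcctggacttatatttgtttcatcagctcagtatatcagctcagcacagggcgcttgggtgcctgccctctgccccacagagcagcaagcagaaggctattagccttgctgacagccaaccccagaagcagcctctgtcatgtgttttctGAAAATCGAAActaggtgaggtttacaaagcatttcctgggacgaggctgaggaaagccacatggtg
Lgals3 (chr14:47373610-47373909, plus strand): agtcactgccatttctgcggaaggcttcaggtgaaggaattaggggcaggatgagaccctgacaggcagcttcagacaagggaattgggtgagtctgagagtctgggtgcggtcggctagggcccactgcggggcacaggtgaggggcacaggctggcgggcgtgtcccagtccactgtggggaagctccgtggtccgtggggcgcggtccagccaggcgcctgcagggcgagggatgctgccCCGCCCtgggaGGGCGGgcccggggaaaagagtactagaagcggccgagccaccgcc

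GAAANNGAAA, the spacing of GAAA repeats found in interferon-stimulated response elements, occurred in 2 places in the Lgals9 window, both on the opposite strand. One match began 55 bases before the start and the other at base 16 of the transcript. It had no match in the Lgals3bp or Lgals3 windows, and it was found in 3.44% of the 32851 promoter windows in the table. GAAANNNGAAA, with 1 more base between the repeats, began 17 bases before the start of Lgals3bp and was found in 2.75% of all windows. GGGCGG, the core of a GC box, occurred in 2 places around the start of Lgals3 and in 35.7% of all windows. A match describes the letters of the window and is not a binding site.

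Of the 10 members, 7 reached an FPKM of 1 in either library, and Clec14a, Cd93 and Mmrn2 did not. Of the 7, Fn1 was at least 2-fold higher in null cells, against 6.84% of all genes compared, Cd248 was at least 2-fold lower, against 6.88%, and 5 lay within 2-fold. Since the 2 genotypes are named for Cd248, its place among the lower genes is no result about the family. The median log2 ratio of the 7, with Cd248 counted, was -0.78, and that of all 12773 genes was 0.03. Of the 7, 3 lay above 0 and 4 below, and Cd248 was among the latter. The median of the 7 is therefore no result about the family either. By level, the order in null cells was Lgals1, Fn1, Lgals3, Lgals3bp, Lgals9, Thbd, Cd93, Mmrn2, Cd248 and Clec14a. The counting intervals of Cd93, Mmrn2 and Cd248 overlapped there. In the heterozygote library Lgals3 stood above Fn1 and Lgals9 above Lgals3bp, but the intervals of Lgals9 (150.3 to 158) and Lgals3bp (149 to 155) overlapped, as did those of the low genes Mmrn2 and Cd93.

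**Figure D3:**
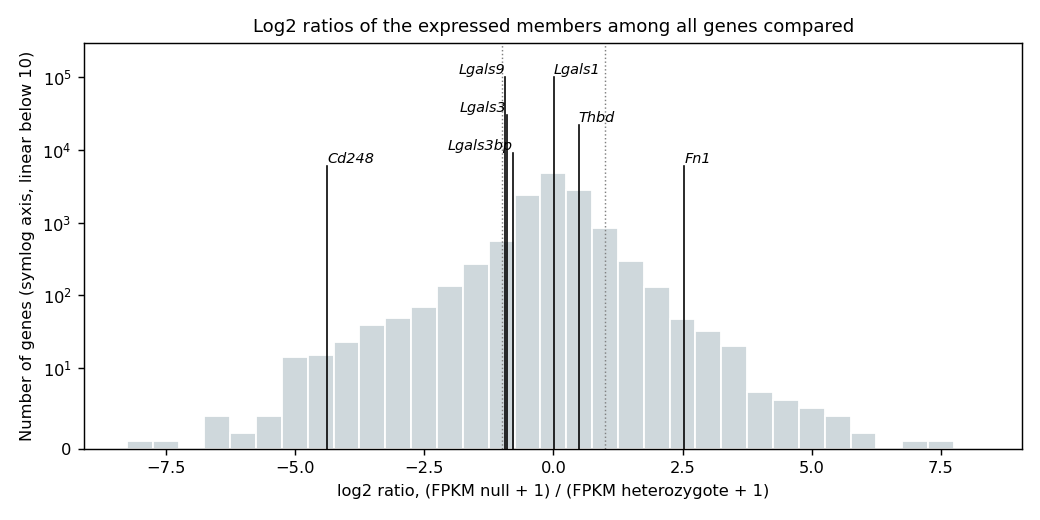
Histogram of the log2 ratio of null to heterozygote, with 1 added to each FPKM, for the 12773 genes compared (number of genes on a symlog axis), with black lines at the 7 members that reached an FPKM of 1. Line heights carry no value and dotted lines mark 2-fold. Cd248 lies at -4.38 and Fn1 at 2.54, while Lgals9, Lgals3 and Lgals3bp sit inside the lower 2-fold mark.

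The genes linked to these members were read from lists chosen by function. Each count below stands beside 6.84% of all genes compared at least 2-fold higher in null cells, 6.88% lower and 86.3% within 2-fold, and no list holds more than 9 expressed genes. Of the 4 expressed genes among the other galectins, 1 was at least 2-fold lower in null cells and 3 lay within 2-fold, with a median of -0.10. Lgals2, the gene of galectin-2, had an FPKM of 0.514 in null cells and 4.81 in heterozygous cells. Lgals8, a tandem-repeat galectin gene, stood at 33.8 and 24.8, and the galectin-related gene Lgalsl at 28.9 and 23.2. Lgals4 had 0.574 and 1.23. No row was matched for Lgals6, a near-identical copy of Lgals4, and the sources used here do not say whether these cells carry it. Over the 9 galectin genes with a row, the summed FPKM was 4139 in null cells and 4278 in heterozygous cells. Lgals1 supplied 93.6% of that sum in null cells and 89.7% in heterozygous cells.

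Of 9 expressed galectin partners and glycan-branching enzymes, 1 was at least 2-fold higher in null cells, none lower and 8 within 2-fold, with a median of 0.17. Havcr2, which encodes the galectin-9 receptor TIM-3, was the higher one, at 10.4 in null cells and 4.001 in heterozygous cells. Mgat5, the enzyme that makes the branched glycans favoured by galectin-3, stood at 5.62 and 5.54. Bsg, which encodes basigin, had the lowest ratio of the list, at 645 and 1088.

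Of the relatives of Mmrn2, Emilin1 and Emilin2 were well above its level. They encode elastic fibre glycoproteins of the EMILIN and multimerin family. Emilin1 had an FPKM of 146 in null cells and 57.9 in heterozygous cells, and Emilin2 had 76.4 and 21.4. Both were at least 2-fold higher in null cells, and they were the 2 expressed genes of 4 in the family. Mmrn1 (listed at 0, and 0.227) and Emilin3 (0.0146 and 0.0240) were below an FPKM of 1 in both libraries.

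Of the 4 genes of collagen chains reported as CD248 ligands, 1 was at least 2-fold higher in null cells, 1 lower and 2 within 2-fold. Col1a2, a chain of collagen I, was higher in null cells, at 1832 against 853, and Col1a1, the other chain, stood at 2779 and 2024, within 2-fold. Col4a1, a chain of the basement membrane collagen IV, was lower in null cells, at 157 against 318, just past the 2-fold mark, and inside it at -0.92 when the columns were scaled to the same sum and at -0.99 with a pseudocount of 5. Col4a2 stood at 109 and 191, within the mark. The median of the 4 was -0.17.

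Of 10 fibronectin receptor genes 7 were expressed. None was at least 2-fold higher in null cells, 1 was lower and 6 lay within 2-fold, a share close to that of all genes compared, with a median of -0.35. The main fibronectin receptor is integrin alpha 5 beta 1. Its alpha chain gene Itga5 stood at 53.0 in null cells and 68.0 in heterozygous cells, and its beta chain gene Itgb1 at 593 and 581. Itga8, an alpha chain gene of smooth muscle and mesenchyme, was the lower one, at 0.0955 and 2.17. Sdc4, a heparan sulphate proteoglycan that works with the integrin at fibronectin, stood at 100.1 and 139. Itgb5, an integrin beta chain gene, had the highest ratio of the list, at 171 and 137.

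Around Thbd, 6 of 11 genes of coagulation and the protein C pathway were expressed, with 1 at least 2-fold higher in null cells, 2 lower and 3 within 2-fold. F3, which encodes tissue factor, the trigger of coagulation, was the higher one, at 122 in null cells and 46.5 in heterozygous cells. Procr, the endothelial protein C receptor gene, was lower, at 14.5 and 39.4, and so was F2rl1, the gene of protease-activated receptor PAR-2, at 0.793 and 7.12. The thrombin receptor gene F2r stood at 113 and 61.8, and the tissue factor inhibitor gene Tfpi at 51.1 and 29.0. Thbd and Procr, the receptors of the protein C system, thus lay on opposite sides, Thbd within 2-fold. The prothrombin gene F2 and the protein C gene Proc were below an FPKM of 1 in both libraries. The median of the 6 was 0.70.

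**Figure D4:**
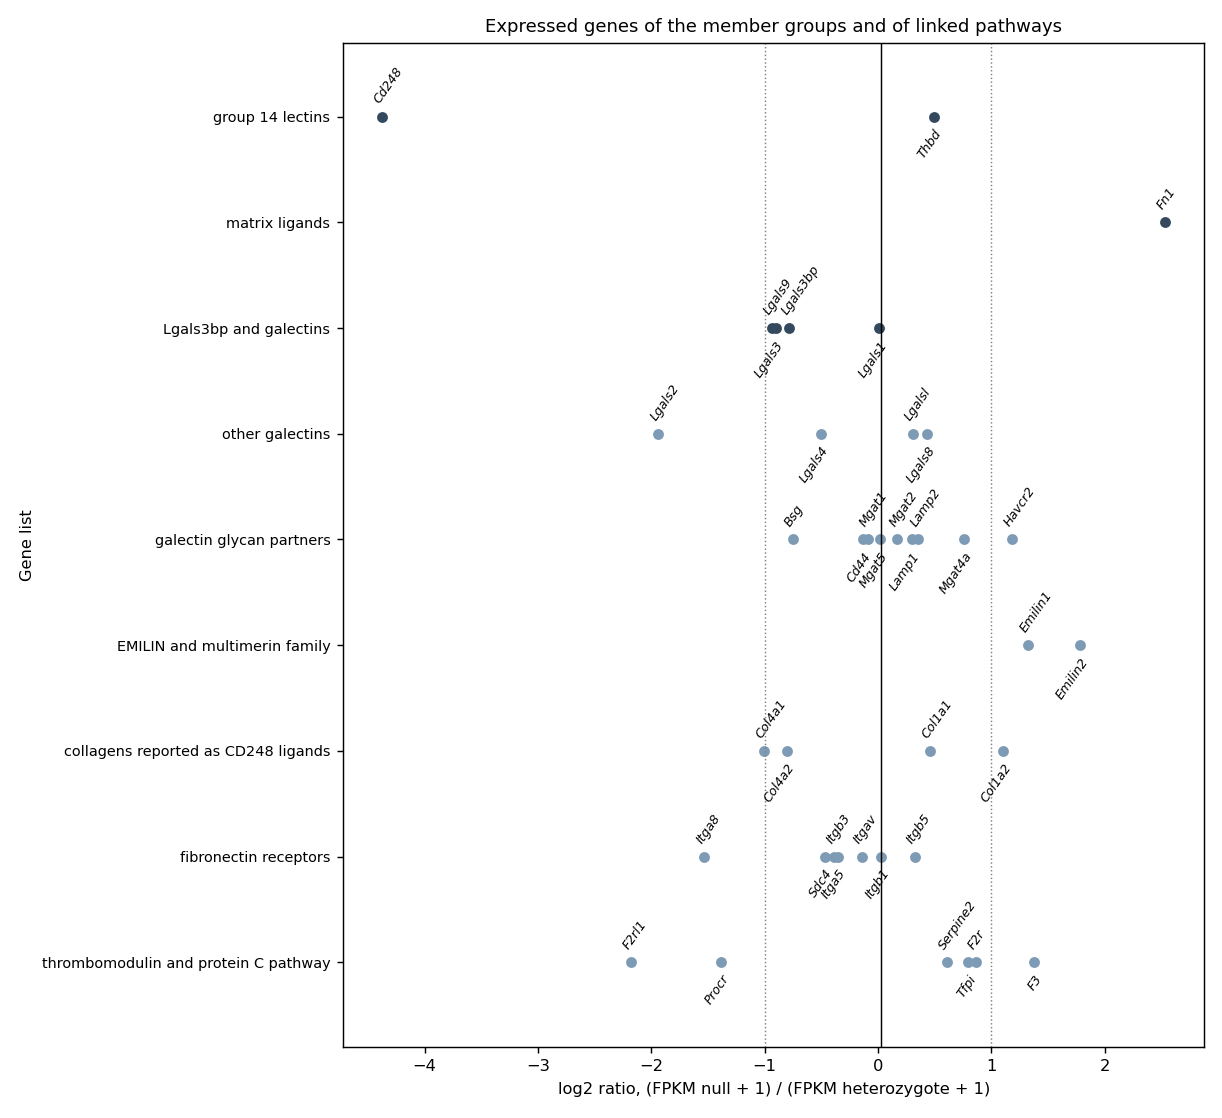
Log2 ratio of null to heterozygote, with 1 added to each FPKM, for each expressed gene of the member groups (dark points) and of the linked lists (light points), with 1 row per list. The solid line is the median of all genes compared, 0.03, and dotted lines mark 2-fold. Emilin1 and Emilin2 lie on the same side as Fn1, while the fibronectin receptors lie between the marks except Itga8 at -1.53.

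Markers of the cell types in which these genes are usually studied differed between the libraries as well. Endothelial cells express Thbd, Clec14a, Cd93 and Mmrn2. Of 16 endothelial markers 4 reached an FPKM of 1, with 2 at least 2-fold lower in null cells, none higher and a median of -1.43, and Tie1, Emcn, Erg, Sox17 and Cldn5 were listed at 0 in both libraries. The summed FPKM was 5.66 in null cells and 90.3 in heterozygous cells, nearly all of the latter from the lower genes Esam (0.201 and 64.0) and Flt4 (1.55 and 23.5). Egfl7 had the highest ratio of the list, at 1.88 and 0.828. Pecam1 (0.184 and 0.0337) and Cdh5 (listed at 0, and 0.0576), which define endothelium, were near 0 in both, as Clec14a, Cd93 and Mmrn2 were.

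Mesothelial markers had the lowest median of the marker lists. All 8 were at least 2-fold lower in null cells, with a median of -5.27 and a summed FPKM of 17.4 in null cells and 1015 in heterozygous cells. Upk3b, a uroplakin gene, had the lowest ratio, at 0.4295 and 330.2, and the mesothelin gene Msln stood at 2.10 and 234. Lrrn4, Gpm6a and Muc16 were listed at 0 in null cells. Of 8 epithelial markers 4 were expressed, and all 4 were lower there (summed FPKM 15.0 and 428), with a median of -3.52 and Epcam listed at 0 in both libraries. Krt18, a keratin gene of simple epithelia, had the lowest ratio, at 0.0361 and 196. Krt8 (listed at 0, and 0.531), Krt5 (listed at 0, and 0.0381) and Cdh1 (0.0180 and 0.0594) were below an FPKM of 1 in both libraries. Krt19 is in both lists. With a pseudocount of 5, Muc16 (-0.50) and Krt14 (-0.28) came inside the 2-fold mark. Cd248, Lgals3bp, Lgals3 and Lgals9 had ratios below 0 like these lists, as did 6143 of the 12773 genes compared. Fn1 (2.54), Thbd (0.49) and Lgals1 (0.01) lay above 0. The part of these lists in the differences of the members was not tested. In bulk RNA, fewer cells of a type and less RNA per cell cannot be told apart.

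Of 15 pericyte markers 8 were expressed, 1 at least 2-fold higher in null cells, none lower and 7 within 2-fold, with a median of -0.003. Their summed FPKM was 896 in null cells and 1473 in heterozygous cells, most of it from the smooth muscle actin gene Acta2 (726 and 1367). Pdgfrb, the mural cell receptor of platelet-derived growth factor, was the higher one (57.3 and 8.25). The capillary pericyte markers Rgs5, Kcnj8, Abcc9, Higd1b and Vtn were below an FPKM of 1 in both libraries. Of 10 fibroblast markers 9 were expressed, with 2 higher, 3 lower and summed FPKM of 4437 and 3009. The higher ones were Thy1 (884 and 359) and Col3a1 (435 and 187), and the lower ones were Dcn (20.8 and 117), Fap (listed at 0, and 1.38) and Pdgfra (21.6 and 46.2). With a pseudocount of 5, Fap (-0.35) and Pdgfra (-0.94) came inside the mark, and Pdgfra also at -0.98 when the columns were scaled to the same sum.

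Myeloid cells can express Cd93, Lgals3 and Lgals9. Of 10 myeloid markers 4 were expressed, with 2 at least 2-fold higher in null cells, none lower and a median of 0.94. Their summed FPKM was 24.3 in null cells and 16.4 in heterozygous cells. Most of it came from Cd14 (14.7 and 10.1), which lay within 2-fold. The higher ones were Lyz2, the lysozyme gene (4.26 and 0.507), and Csf1r, a receptor gene of macrophage growth factor (2.10 and 0.195), both inside the mark with a pseudocount of 5 (0.75 and 0.45). Cd68 had the lowest ratio of the list, at 3.19 and 5.49. Adgre1, Itgam and Tyrobp were listed at 0 in both libraries, and Ptprc, the pan-leukocyte marker CD45, was listed at 0 in null cells and stood at 0.0574 in heterozygous cells. None of the 8 lymphocyte markers was expressed.

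**Figure D5:**
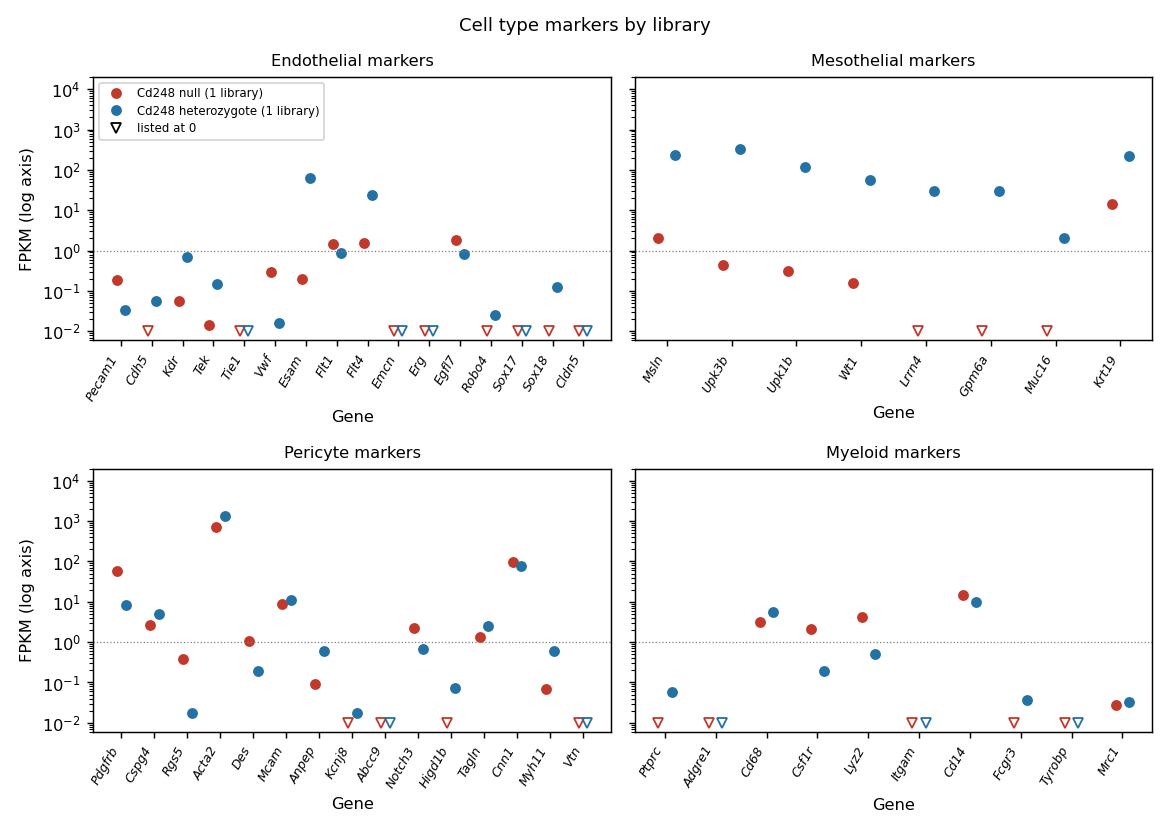
FPKM (log axis) of endothelial, mesothelial, pericyte and myeloid markers, with 1 point per library and triangles for genes listed at 0; the dotted line is an FPKM of 1. All 8 mesothelial markers stand higher in heterozygous cells, and Tie1, Emcn, Erg, Sox17 and Cldn5 are listed at 0 in both libraries.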

How the data were processed

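The authors deposited a table of FPKM values in which each library is 1 column. According to the submitters' processing notes, Bowtie2 (2.2.3) and the genome build mm8 were used; the sources used here do not name the counting tool, the annotation or the FPKM denominator. Gene IDs were matched to GENCODE M21 symbols (52403 of 52636), and where IDs shared a symbol the row with the highest mean was kept, leaving 52329 symbols. That annotation is of GRCm38, so only names, chromosomes, exon numbers and transcript lengths were taken from it. Gene order and promoters are those of RefSeq GRCm38.p6.

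A gene was compared when either library reached an FPKM of 1, by log2((FPKM null + 1)/(FPKM heterozygote + 1)), with a mark at 2-fold. No p-value was computed, because there was 1 library per genotype. Folds are ratios of FPKM without the added 1. Reads behind a value were taken from the step between low values of genes with 1 annotated transcript: of values under 10 reads, 98.6% (null) and 98.5% (heterozygote) were whole to within 0.02 reads, giving totals of 19786100 and 23982200 reads. For members with several transcripts the longest was used, and the shortest coding transcript was tried as an alternative, so their reads are approximate. Intervals are exact 95% Poisson (values) or conditional binomial (ratios), and the reads carry no molecular identifiers. None of 14 control genes such as Actb and Gapdh was listed at 0.

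The estimate of the read totals and the call of genes past the 2-fold mark were tested on simulated data. Those data held counting error but no spread between cultures, and the other steps were not tested in this way. The members and lists were chosen with earlier results of these data known. A gene of the coagulation list is not reported here and was left out of its counts. The text names all members, the expressed gene with the largest ratio in each direction of each list, and the 5 genes nearest Cd248; other list genes are named for passing the mark, for their role or as defining markers, and neighbours and motifs were added after the values were seen. Values were computed with Python 3.11.15, numpy 2.4.6, pandas 2.3.3 and scipy 1.17.1.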

Additional observations from a re-analysis of the deposited data

How the results depend on the processing

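Pseudocounts of 0.1 and 5, no filter on low values, a minimum FPKM of 5, columns scaled to the same sum or the same upper quartile, and a mark at 1.5-fold were tried. Fn1 remained the 1 member past the upper mark under all 7 of these settings, at log2 ratios of 2.51 to 2.62. Cd248 remained past the lower mark, at -7.05 with a pseudocount of 0.1 and -2.36 with a pseudocount of 5. At the 1.5-fold mark the members lower in null cells numbered 4 in place of 1 (Cd248, Lgals3bp, Lgals3 and Lgals9), since these 3 lie between the marks; 12.9% of all genes compared were lower by that rule. None of the 7 expressed members changed sign, and Thbd ranged from 0.45 to 0.58. Scaling to the same sum moved ratios up by at most 0.09, less for genes of low level (Cd248 to -4.33), and brought 2 list genes inside the mark, Col4a1 (-0.92) and Pdgfra (-0.98). A pseudocount of 5 brought 10 list genes inside it. These were the linked genes Lgals2 (-0.83), Itga8 (-0.49), Havcr2 (0.77) and Col4a1 (-0.99) and the markers Muc16, Krt14, Lyz2, Csf1r, Pdgfra and Fap. A pseudocount of 0.1 took 4 past it, Mgat4a (1.05), Des (2.03), Notch3 (1.54) and Egfl7 (1.09). List medians were less stable, and 6 of their 72 alternative values had the other sign. The median of the other galectins, -0.10, became 0.05 at a pseudocount of 5, 0.15 when no genes were filtered and 0.37 at a minimum FPKM of 5. A minimum FPKM of 5 took the endothelial median from -1.43 to -4.51, the myeloid one from 0.94 to -0.07 and the pericyte one from -0.003 to -0.34. The pericyte median became 0.08 with equal sums and 0.001 with equal upper quartiles. Without a filter the coagulation (0.70), endothelial and myeloid medians were 0 and the epithelial one went from -3.52 to -0.83. On the shortest coding transcript Fn1 stood for 14805 reads in null cells in place of 183458, with a counting interval of its ratio of 5.60 to 6.05. No paired analysis was possible because there was 1 library per genotype, and no library could be left out. Reads behind Clec14a, Cd93 and Mmrn2 are too few to show a modest difference.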

Other observations

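The genes next to the members along their chromosomes gave a local view of each locus. Of 54 protein-coding genes within 3 places of a member, members left out, 43 were expressed. Of these, 2 were at least 2-fold higher in null cells and 3 at least 2-fold lower, with a median log2 ratio of -0.05. These are 4.65% and 6.98% of the neighbours, near the 6.84% and 6.88% of all genes compared, so the counts are no result about the loci. Sncg, the gamma-synuclein gene beside Mmrn2, had an FPKM of 16.6 in null cells and 1.66 in heterozygous cells. Ksr1, a scaffold gene of the MAP kinase cascade beside Lgals9, had 26.0 and 8.95. Foxa2, a transcription factor gene of endoderm near Thbd, had 6.65 and 34.2. The remaining lower ones were Tmem151a beside Cd248 and Lgals2, which lies near Lgals1. The genes on either side of Fn1 showed no such difference. Atic, an enzyme gene of purine synthesis, stood at 98.4 and 106, and Mreg at 0.332 and 0.292. These genes were named after their values were seen.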
